A study of Mus musculus with 21 samples.

Results

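Disease-associated microglia (DAM) markers are genes that are low in resting microglia and high in the state that microglia take on around damaged tissue. The 8 markers described here, Spp1, Igf1, Lgals3, Lgals3bp, Gpnmb, Clec7a, Cd9 and Cst7, were found by their gene symbols in a table of 45706 mouse genes measured by RNA-seq in sorted brain immune cells after traumatic brain injury (TBI). All 8 were present once and all 8 were among the 23815 genes with at least 5 counts over the 21 libraries, which were the genes tested. The rule used gene names and no measured value, but the members were chosen with earlier results of these data known.

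Microglia are the resident macrophages of the brain parenchyma. The DAM program was described around amyloid plaques and in other forms of neurodegeneration, as a first step that does not need the lipid receptor TREM2 and a later step that does, and most of the 8 markers belong to the later step. The program combines secreted proteins that act on neighboring cells and matrix with surface receptors and lysosomal proteins used in phagocytosis. Many of the same genes are also used by macrophages that enter the brain from blood, so expression of a DAM marker does not by itself tell the cell types apart.

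All mice were males on the C57BL/6 background, 17 to 24 weeks of age. TBI was produced by controlled cortical impact (CCI), in which a driven piston strikes the exposed cortex. Wildtype (WT) mice were compared with Fggγ390–396A mice (Fgg in group names), a knock-in of the fibrinogen gamma chain gene in which alanines replace the motif that binds the integrin CD11b/CD18 on microglia and macrophages. CD45lowCD11b+ microglia were sorted from the peri-lesional tissue of WT sham mice, which received anesthesia and craniotomy without impact, and from WT and Fggγ390–396A mice at 1 d and at 7 d after CCI. CD45hiCD11b+ infiltrating myeloid cells, labelled macrophages, were sorted at 1 d after CCI from both genotypes. Each of the 7 groups had 3 libraries, and each library came from 2 pooled brains, with 40000 microglia or 25000 myeloid cells as the stated sort. There was no Fggγ390–396A sham group, so a difference between injured Fggγ390–396A mice and sham mice holds both injury and genotype, which cannot be told apart. The mutation was present from birth in every cell, so it is not limited to the injury or to one cell type.

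The libraries held 18896957 to 51875767 counts, of which 43.0% to 58.5% were in ribosomal RNA genes. Levels are given as CPM, the count of a gene per 1000000 counts of the library after trimmed-mean scaling. Gene length had already been divided out of the counts, so CPM can be compared between genes as well as between libraries. At these depths 3 counts corresponded to 0.0448 to 0.158 CPM. The summed level of 12 homeostatic microglia genes was 13517 to 15605 CPM in sham microglia, 4652 to 10906 CPM in microglia after CCI and 784 to 1763 CPM in myeloid cells. The summed level of 14 monocyte and neutrophil markers, which microglia should lack, was 3550 to 13949 CPM in myeloid cells, 34.3 to 833 CPM in microglia after CCI, and 7.87, 91.5 and 621 CPM in sham replicates 1, 2 and 3. Of these 14 genes, 0 to 3 were at 0 in a microglia library, and the chemokine receptor gene Ccr2 had 1.41 to 27.8 CPM in microglia against 249 to 483 CPM in myeloid cells. Among 7 border-associated macrophage markers the sum was 4.91, 118 and 249 CPM in the same sham replicates. In bulk libraries, fewer cells of a type and less RNA per cell cannot be told apart.

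The sequences around the start sites of 4 of the 8 genes are shown because they hold at least 1 of the searched motifs. They are RefSeq windows on GRCm38.p6, written along the gene's strand from 250 bases before to 50 bases after the start, with matched motifs in capitals. Motifs were searched on both strands. In Spp1 the capitals mark an interferon regulatory factor motif (GAAA, 2 free bases and GAAA again, on the opposite strand) and the PU.1 motif (GAGGAAGT, PU.1 being the lineage factor of macrophages and microglia). In Gpnmb, Cst7 and Igf1 they mark the AP-1 motif (TGANTCA), the site of Fos and Jun factors.
Spp1, chr5:104434861-104435160: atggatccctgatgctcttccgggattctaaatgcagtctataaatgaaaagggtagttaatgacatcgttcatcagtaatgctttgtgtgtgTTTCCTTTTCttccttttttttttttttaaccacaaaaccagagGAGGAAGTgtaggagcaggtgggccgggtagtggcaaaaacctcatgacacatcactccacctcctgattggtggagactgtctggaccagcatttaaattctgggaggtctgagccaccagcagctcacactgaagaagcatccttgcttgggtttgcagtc
Gpnmb, chr6:49036268-49036567: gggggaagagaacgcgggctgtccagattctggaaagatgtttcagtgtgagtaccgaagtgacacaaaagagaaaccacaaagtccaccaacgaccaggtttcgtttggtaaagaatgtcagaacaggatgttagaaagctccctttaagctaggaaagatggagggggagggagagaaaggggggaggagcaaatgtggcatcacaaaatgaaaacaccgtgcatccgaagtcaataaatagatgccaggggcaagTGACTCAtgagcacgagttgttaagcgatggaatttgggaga
Cst7, chr2:150570165-150570464: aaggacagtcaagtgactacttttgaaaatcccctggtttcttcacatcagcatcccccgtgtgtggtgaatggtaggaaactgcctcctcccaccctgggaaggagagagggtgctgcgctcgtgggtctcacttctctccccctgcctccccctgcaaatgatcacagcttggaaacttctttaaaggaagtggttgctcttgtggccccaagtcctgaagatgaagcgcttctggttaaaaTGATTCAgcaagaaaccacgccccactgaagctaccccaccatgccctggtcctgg
Igf1, chr10:87860861-87861160: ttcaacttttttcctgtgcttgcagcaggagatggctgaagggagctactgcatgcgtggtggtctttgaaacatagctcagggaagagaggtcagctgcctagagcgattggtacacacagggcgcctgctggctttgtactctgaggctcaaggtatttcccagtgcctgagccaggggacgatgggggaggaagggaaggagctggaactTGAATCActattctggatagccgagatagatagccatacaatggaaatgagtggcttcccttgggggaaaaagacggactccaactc

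The AP-1 match lay at bases 8 to 14 in Gpnmb, -6 to 0 in Cst7 and -37 to -31 in Igf1, where 0 is the first transcribed base. In Spp1 the interferon regulatory factor match lay at -157 to -148 and the PU.1 match at -113 to -106. Over all 32851 such windows in the mouse table, 7.81% held the AP-1 motif, 3.2% the PU.1 motif and 3.44% the interferon regulatory factor motif. The E-box CACGTG, the core site of the MiT/TFE factors that control lysosomal genes, was in 7.15% of all windows. The windows of Lgals3, Lgals3bp, Clec7a and Cd9, and a further Spp1 window, held none of these 4 letter patterns. A match is a description of the sequence and does not show that a factor binds there.

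Spp1 encodes osteopontin, a secreted phosphoprotein that binds integrins and CD44, and lies on chromosome 5 (104435118 to 104441050, GRCm38). Sham microglia had 0.861, 1.25 and 4.55 CPM. WT microglia at 1 d had 301, 398 and 520 CPM, and Fggγ390–396A microglia at 1 d had 112, 334 and 215 CPM. Every injured library was thus more than an order of magnitude above every sham library at 1 d, while the genotypes overlapped. At 7 d, WT microglia had 196, 337 and 135 CPM. Fggγ390–396A microglia at 7 d had 26.6, 62.3 and 58.9 CPM, all below the lowest WT library. Myeloid cells had the highest levels, 1305 to 1843 CPM in WT and 1043 to 1894 CPM in Fggγ390–396A mice. In order of the mean, WT and Fggγ390–396A myeloid cells came first and overlapped, WT microglia at 1 d and at 7 d and Fggγ390–396A microglia at 1 d followed and overlapped with their neighbors, and Fggγ390–396A microglia at 7 d and sham microglia stood apart from each other and from the rest.

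Lgals3 encodes galectin-3, a lectin that binds β-galactosides on glycoproteins and on damaged lysosomes, and lies on chromosome 14 (47367751 to 47386160). It had 1.12, 4.40 and 6.44 CPM in sham microglia. WT microglia had 65.8, 89.5 and 204 CPM at 1 d and 25.9, 26.7 and 21.8 CPM at 7 d. Fggγ390–396A microglia had 29.8, 49.2 and 56.0 CPM at 1 d and 8.42, 10.3 and 8.82 CPM at 7 d. The 5 microglia groups did not overlap with one another at any neighboring pair in the order of means, which ran from WT at 1 d through Fggγ390–396A at 1 d, WT at 7 d and Fggγ390–396A at 7 d to sham. Myeloid cells lay far above, at 1002 to 1325 CPM in WT and 885 to 1094 CPM in Fggγ390–396A mice, and the 2 genotypes overlapped there.

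Igf1 encodes insulin-like growth factor 1, a secreted growth factor that microglia supply to neurons and oligodendrocyte lineage cells, and lies on chromosome 10 (87858265 to 87937042). Its sham levels were spread widely, at 1.24, 9.72 and 14.4 CPM. At 1 d the injured libraries fell inside that spread, with 3.17 to 4.38 CPM in WT and 3.65 to 4.02 CPM in Fggγ390–396A microglia. At 7 d WT microglia had 51.7, 126 and 51.2 CPM and Fggγ390–396A microglia had 12.1, 36.2 and 27.1 CPM. All 3 WT libraries at 7 d were above every other library, and the Fggγ390–396A libraries at 7 d overlapped with sham. Myeloid cells had 2.21 to 15.5 CPM over both genotypes.

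Lgals3bp encodes galectin-3-binding protein, a secreted glycoprotein that binds galectins and matrix, and lies on chromosome 11 (118392751 to 118402092). It was already well expressed in sham microglia, at 57.6, 56.9 and 95.9 CPM. At 1 d WT microglia had 108, 157 and 169 CPM and Fggγ390–396A microglia had 112, 134 and 264 CPM. At 7 d WT microglia had 580, 718 and 682 CPM, above all other libraries, and Fggγ390–396A microglia had 485, 256 and 349 CPM. Myeloid cells, at 73.2 to 168 CPM, were in the range of sham and 1 d microglia.

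Gpnmb encodes a transmembrane glycoprotein of lysosomes and the cell surface in phagocytes, and lies on chromosome 6 (49036546 to 49070929). It was close to absent in sham microglia, with 3, 1 and 6 counts or 0.0956, 0.0380 and 0.151 CPM, so its changes over sham rest on few counts. At 1 d WT microglia had 1.26, 0.543 and 2.54 CPM and Fggγ390–396A microglia had 1.24, 0.428 and 0.804 CPM. At 7 d WT microglia had 17.2, 36.6 and 10.98 CPM and Fggγ390–396A microglia had 1.54, 6.96 and 3.91 CPM. WT microglia at 7 d did not overlap with any other microglia group, while Fggγ390–396A microglia at 7 d overlapped with WT microglia at 1 d. Myeloid cells had 88.2, 130 and 105 CPM in WT and 170, 66.6 and 77.2 CPM in Fggγ390–396A mice.

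Clec7a encodes Dectin-1, a C-type lectin receptor for β-glucans that signals through Syk, and lies on chromosome 6 (129461591 to 129472779). The annotation used here gives this gene the type polymorphic pseudogene, and its counts were used as for the other members. Sham microglia had 3.67, 11.01 and 8.12 CPM. WT microglia had 24.1, 23.9 and 20.3 CPM at 1 d and 148, 143 and 152 CPM at 7 d. Fggγ390–396A microglia had 18.1, 14.6 and 17.4 CPM at 1 d and 85.7, 48.8 and 68.5 CPM at 7 d. The 5 microglia groups stood in an order without overlap, WT at 7 d, Fggγ390–396A at 7 d, WT at 1 d, Fggγ390–396A at 1 d and sham. WT myeloid cells had 294, 281 and 351 CPM and Fggγ390–396A myeloid cells 110, 202 and 262 CPM, all below the lowest WT myeloid library.

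Cd9 encodes a tetraspanin that organizes adhesion and fusion complexes in the membrane, and lies on chromosome 6 (125460266 to 125494791). It was the highest of the 8 members in sham microglia, at 257, 312 and 281 CPM, and moved least. WT microglia at 7 d had the highest group mean, 455 ± 55.4 CPM (SD, n = 3), and Fggγ390–396A myeloid cells the lowest, 259 ± 95.4 CPM (SD, n = 3). Every neighboring pair in the order of the 7 group means overlapped.

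Cst7 encodes cystatin F, an inhibitor of cysteine cathepsins in the endolysosome, and lies on chromosome 2 (150570415 to 150578944). Sham microglia had 4.97, 4.82 and 8.55 CPM. At 1 d WT microglia had 29.7, 44.3 and 37.8 CPM and Fggγ390–396A microglia had 31.4, 37.1 and 45.2 CPM, with the genotypes overlapping. At 7 d WT microglia had 145, 97.6 and 127 CPM and Fggγ390–396A microglia had 78.3, 37.9 and 62.8 CPM. Unlike Gpnmb and Clec7a, Cst7 was low in myeloid cells, with 8.78, 8.95 and 6.36 CPM in WT and 5.24, 24.5 and 13.02 CPM in Fggγ390–396A mice, below every microglia library after CCI.

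**Figure D1:**
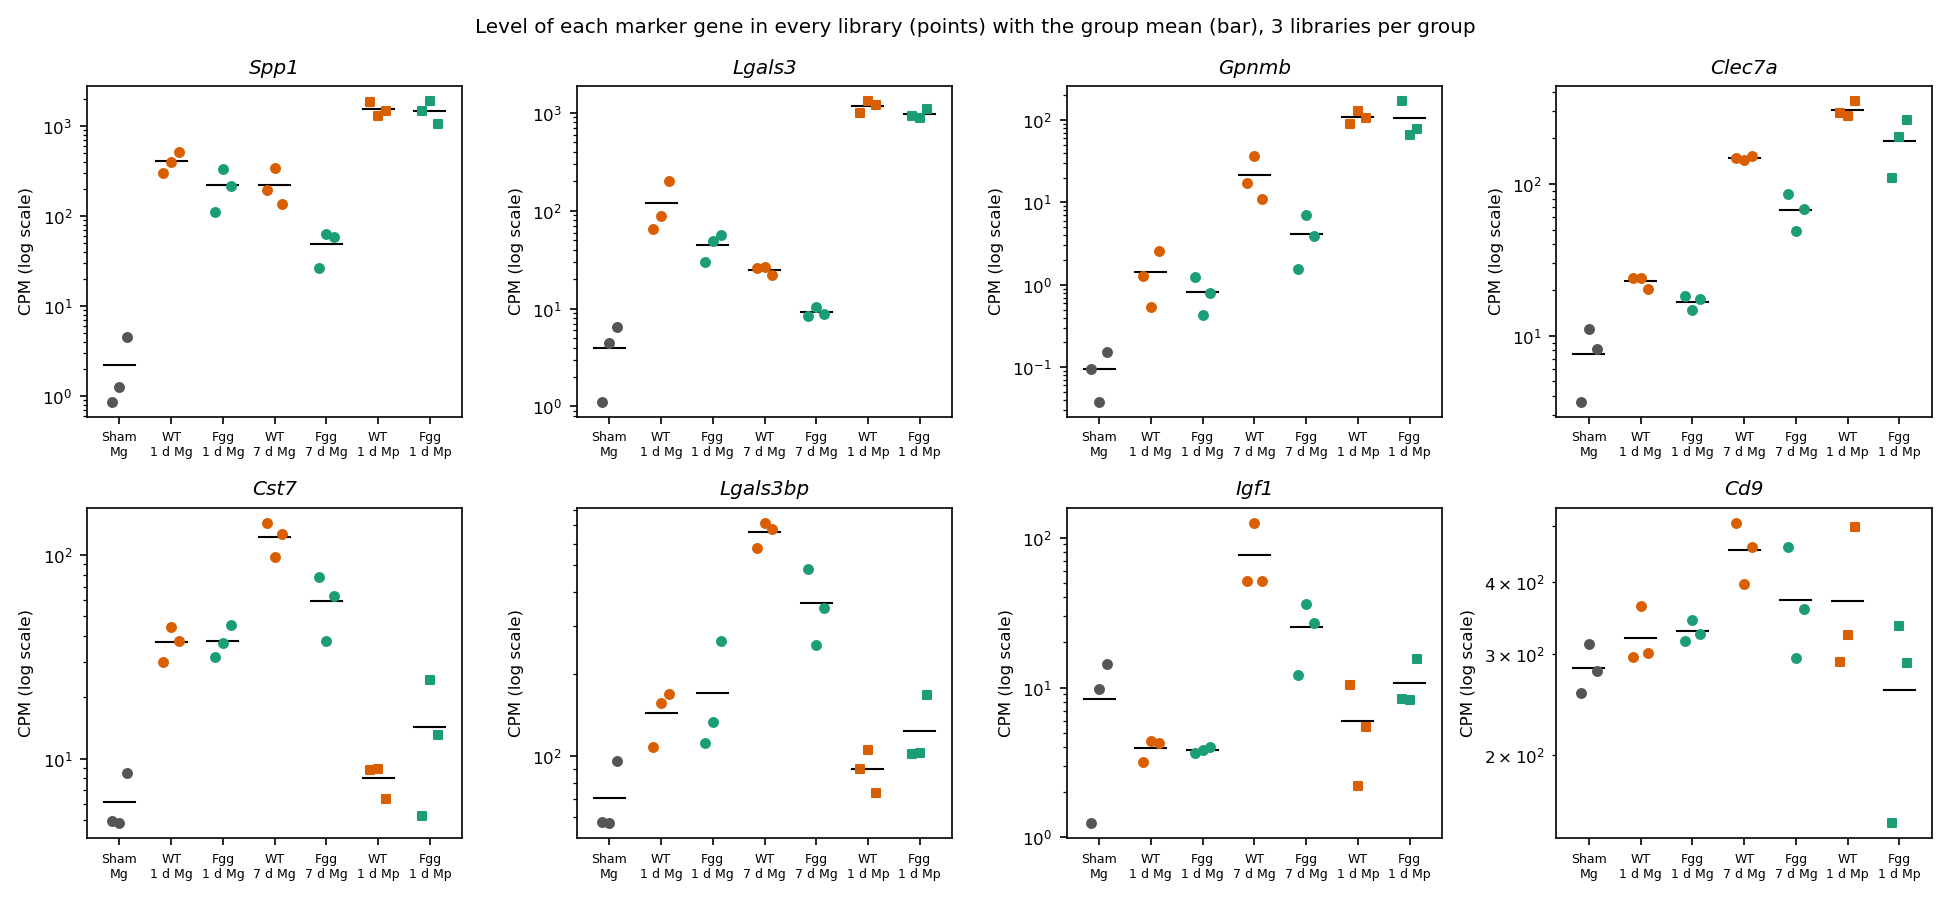
Level of each of the 8 DAM markers in CPM on a log axis, with 1 point per library, a bar at the group mean, circles for microglia (Mg) and squares for infiltrating myeloid cells (Mp); gray is sham, orange WT and green Fggγ390–396A. Spp1 and Lgals3 have higher microglia group means at 1 d than at 7 d, Gpnmb, Clec7a, Cst7, Lgals3bp and Igf1 have higher means at 7 d, and the Fggγ390–396A points at 7 d lie below the WT points in every panel but Cd9.

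The first comparison asked how microglia responded 1 d after injury. In WT microglia, 5 of the 8 markers rose over sham (adjusted p below 0.05 in edgeR with a log2 change of more than 1.5 in either direction), against 4.91% of all tested genes that were called higher. Spp1 rose 180-fold (log2 fold change 7.49 ± 0.65 SE, adjusted p = 3.2e-07) and Lgals3 29.9-fold (4.90 ± 0.49, adjusted p = 1.4e-06). Gpnmb rose by 3.78 ± 0.83 on the log2 scale (adjusted p = 0.0027), Cst7 by 2.60 ± 0.40 (adjusted p = 0.00012) and Clec7a by 1.58 ± 0.32 (adjusted p = 0.0014). Clec7a lay just past the fold threshold and had a log2 fold change of 1.48 with DESeq2 and of 1.25 without sham replicate 1, under the threshold in both. Lgals3bp had a log2 fold change of 1.04 (adjusted p = 0.027), below the fold threshold, and Cd9 of 0.18 and Igf1 of -1.10 did not pass (adjusted p = 0.71 and 0.26).

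In Fggγ390–396A microglia at 1 d, 4 of the 8 markers rose over the same sham libraries, against 3.02% of all genes called higher. These were Spp1 (log2 fold change 6.60 ± 0.63, adjusted p = 1.4e-06), Lgals3 (3.49 ± 0.47, adjusted p = 5.4e-05), Cst7 (2.63 ± 0.40, adjusted p = 0.00021) and Gpnmb (3.01 ± 0.84, adjusted p = 0.025). The Gpnmb call was lost when any of 5 single libraries was left out, the 3 sham libraries and Fggγ390–396A replicates 1 and 3, with log2 fold changes of 2.51 to 3.54, and when only the compared groups were fitted (3.04). Clec7a (1.14, adjusted p = 0.024) and Lgals3bp (1.28, adjusted p = 0.012) stayed below the fold threshold, and Lgals3bp passed it without sham replicate 3 (1.57) or Fggγ390–396A replicate 1 (1.503). The median log2 fold change of the 8 markers was 2.09 in WT and 1.95 in Fggγ390–396A microglia, where the median of all genes was 0 in both.

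At 7 d, 7 of the 8 markers were above sham in WT microglia (adjusted p below 0.05 with a log2 change of more than 1), against 1.93% of all genes called higher. Gpnmb rose most, by 7.68 ± 0.80 on the log2 scale (adjusted p = 2.2e-05), and Spp1 by 6.62 ± 0.63 (adjusted p = 1.2e-05). Cst7 rose 20.0-fold (adjusted p = 2.2e-05), Clec7a 19.4-fold (adjusted p = 2.2e-06) and Lgals3bp 9.40-fold (adjusted p = 2.2e-05). Igf1 rose 9.02-fold (adjusted p = 0.0081) and Lgals3 6.20-fold (adjusted p = 0.0022), and the Igf1 call was lost when only the compared groups were fitted (log2 fold change 3.19). Cd9, the remaining marker, was 1.61-fold above sham with no overlap and did not pass (adjusted p = 0.21).

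In Fggγ390–396A microglia at 7 d, 5 of the 8 markers were above sham, against 0.63% of all genes called higher. Gpnmb rose by 5.29 ± 0.79 on the log2 scale (adjusted p = 0.0017), Spp1 by 4.44 ± 0.57 (adjusted p = 0.00058), Cst7 by 3.28 ± 0.42 (adjusted p = 0.00055), Clec7a by 3.16 ± 0.34 (adjusted p = 6e-05) and Lgals3bp by 2.37 ± 0.33 (adjusted p = 0.00092). Igf1 (1.57 ± 0.62, adjusted p = 0.48) and Lgals3 (1.20 ± 0.44, adjusted p = 0.38) were called in WT and not in Fggγ390–396A microglia, and the tests between the genotypes are given further on. The fold threshold was 1 at 7 d and 1.5 at 1 d, so the numbers of markers called cannot be compared between the times. At 1 d Lgals3bp in WT (1.04) lay between these thresholds with an adjusted p below 0.05. So did Clec7a (1.14) and Lgals3bp (1.28) in Fggγ390–396A microglia. The median log2 fold change of the 8 markers at 7 d was 3.76 in WT and 2.76 in Fggγ390–396A microglia, with 0 for all genes in both. All of these comparisons share the 3 sham libraries. The labels give no day for them, so it is not known whether sham matched 1 d or 7 d in time after surgery.

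Sham replicate 3 had the highest summed levels of monocyte and neutrophil markers and of border-associated macrophage markers in its group, and also the highest Spp1, Gpnmb, Lgals3, Igf1, Cst7 and Lgals3bp. Without any single library of the groups compared, 7 markers were called in WT at 7 d and 5 in Fggγ390–396A at 7 d, the same numbers as with all libraries, and 3 or 4 in Fggγ390–396A at 1 d. In WT at 1 d the number was 5 throughout, but without sham replicate 1 it held Igf1, called lower (-1.62), in place of Clec7a. The part of other cells in the sham levels was not tested.

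**Figure D2:**
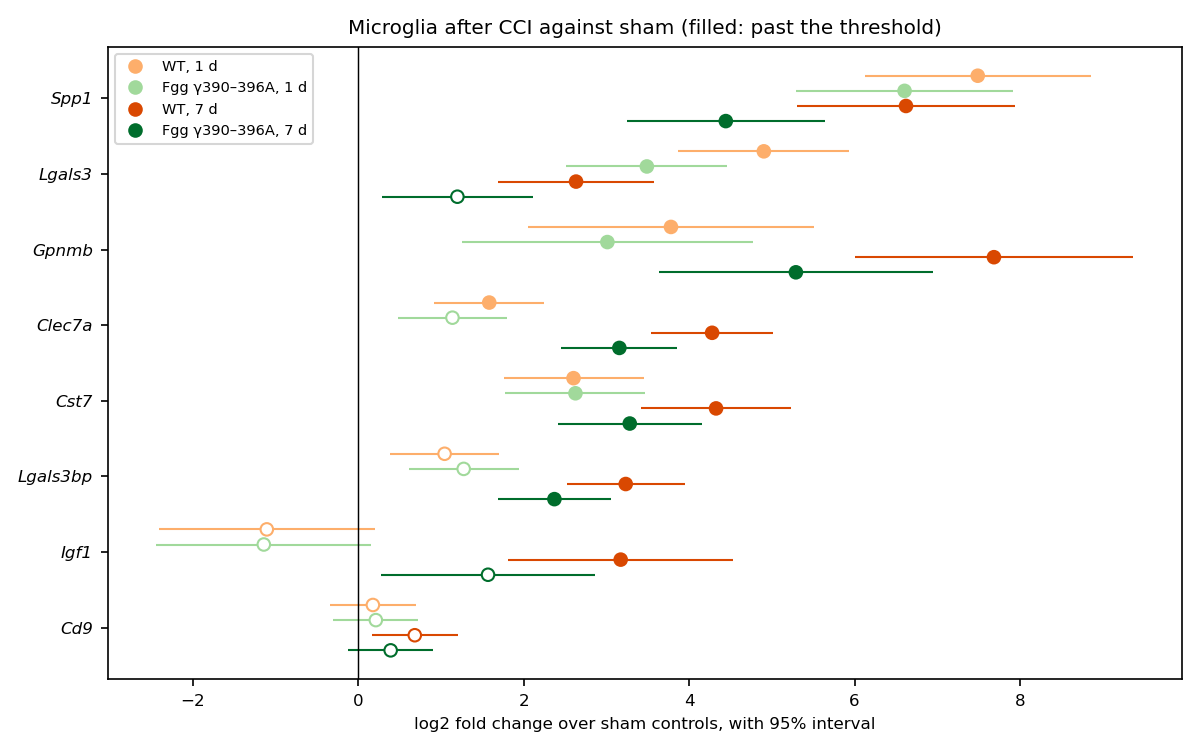
Log2 fold change of each DAM marker over sham microglia, with its 95% interval, in WT and Fggγ390–396A microglia at 1 d and 7 d after CCI. Filled points passed the threshold, which was an adjusted p below 0.05 with a log2 change above 1.5 at 1 d and above 1 at 7 d. Spp1 and Lgals3 have their largest values in WT at 1 d (7.49 and 4.90), and Gpnmb in WT at 7 d (7.68).

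The direct comparison of 7 d with 1 d separated the markers by time. In WT microglia 5 rose from 1 d to 7 d, against 2.67% of all genes, and 1 fell, against 4.39% of all genes. Igf1 rose 19.4-fold (log2 fold change 4.28 ± 0.69, adjusted p = 0.00037), Gpnmb 14.96-fold (3.90 ± 0.61, adjusted p = 0.00029) and Clec7a 6.47-fold (2.69 ± 0.33, adjusted p = 3.4e-05). Lgals3bp rose by 2.19 ± 0.33 (adjusted p = 0.00018) and Cst7 by 1.72 ± 0.39 (adjusted p = 0.0058) on the log2 scale. Lgals3 fell by 2.27 ± 0.44 on the log2 scale (adjusted p = 0.0017). Spp1 had a log2 fold change of -0.87 (95% interval -1.89 to 0.16, adjusted p = 0.32) and Cd9 of 0.51 (adjusted p = 0.24).

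In Fggγ390–396A microglia 4 markers rose from 1 d to 7 d, against 0.663% of all genes, and 2 fell, against 2.88% of all genes. Clec7a rose 4.05-fold (adjusted p = 0.00068), Igf1 6.54-fold (adjusted p = 0.015), Gpnmb 4.85-fold (adjusted p = 0.027) and Lgals3bp 2.14-fold (adjusted p = 0.047). Lgals3 fell by 2.29 ± 0.44 on the log2 scale (adjusted p = 0.0031) and Spp1 fell by 2.16 ± 0.51 (adjusted p = 0.014). Cst7 had a log2 fold change of 0.66 (adjusted p = 0.41) and Cd9 of 0.18 (adjusted p = 0.81). These 6 calls were less firm than those in WT. Leaving out 1 library of the 2 groups left 2 to 5 of them, with 2 calls, Clec7a and Lgals3, left without Fggγ390–396A replicate 2 at 1 d, whereas the number in WT stayed at 6 under each such omission. Lgals3bp was also lost in the fit of microglia alone, and with Gpnmb in the fit of the compared groups only.

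The main question of the design was whether the Fggγ390–396A mutation changed these genes. At 1 d none of the 8 markers differed between Fggγ390–396A and WT microglia in edgeR (adjusted p below 0.1 with a log2 change of more than 1), where 0.0546% of all genes did. At an unadjusted p below 0.05, 1 of the 8 was lower, against 2.39% of all genes. It was Lgals3, with a log2 fold change of -1.41 (95% interval -2.30 to -0.53, adjusted p = 0.75) and no overlap between the genotypes. DESeq2 called Lgals3 lower (adjusted p = 0.083), where it called 0.252% of all genes lower. Without WT replicate 3 the edgeR log2 fold change of Lgals3 was -0.80, under the fold threshold. Clec7a (-0.44) also had no overlap, which makes 2 of the 8 markers lower without overlap, against 2.99% of all genes, and Spp1 (-0.88) and Gpnmb (-0.77) overlapped. The values for Cst7 (0.02), Igf1 (-0.04), Cd9 (0.04) and Lgals3bp (0.23) were close to 0, with 95% intervals of -0.77 to 0.81, -1.34 to 1.27, -0.48 to 0.55 and -0.42 to 0.88.

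At 7 d all 8 markers had lower group means in Fggγ390–396A than in WT microglia, and in 7 of them, all but Cd9, every Fggγ390–396A library was below every WT library. Among all tested genes 5.28% were lower without overlap. None of the 8 passed the edgeR threshold, which 0.0378% of all genes passed. The log2 fold change was -2.39 for Gpnmb (95% interval -3.57 to -1.22) and -2.18 for Spp1 (-3.24 to -1.11), each with an adjusted p of 0.48. It was -1.60 for Igf1 (-2.88 to -0.32), -1.43 for Lgals3 (-2.33 to -0.53), -1.12 for Clec7a (-1.77 to -0.47), -1.04 for Cst7 (-1.84 to -0.25) and -0.86 for Lgals3bp (-1.52 to -0.20), each with an adjusted p of 1. For Cd9 it was -0.29 (-0.81 to 0.22, adjusted p = 1).

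At an unadjusted p below 0.05, 7 of the 8 markers were lower in Fggγ390–396A microglia at 7 d, against 2.11% of all genes. DESeq2 called 3 of them lower, Spp1 (adjusted p = 0.0032), Gpnmb (adjusted p = 0.015) and Clec7a (adjusted p = 0.069), against 0.168% of all genes. An edgeR fit of only the 6 libraries compared called Lgals3 instead. With any 1 of these libraries left out of the main edgeR fit, 0 of the 8 were called. The genotype difference therefore did not pass in the main edgeR fit. It passed for some markers with DESeq2 and with the 6 libraries alone, and which markers passed depended on the fit. The median log2 fold change of the 8 markers was -1.28, with 0 for all genes.

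At 7 d the summed monocyte and neutrophil markers did not order the libraries as the DAM markers did. They were 680, 106 and 59.5 CPM in WT microglia and 190, 283 and 240 CPM in Fggγ390–396A microglia at 7 d, so that 2 WT libraries had lower sums than all Fggγ390–396A libraries. Those 2 WT libraries had 337 and 135 CPM of Spp1 and 36.6 and 10.98 CPM of Gpnmb, above every Fggγ390–396A library. Border-associated macrophage markers summed to 161, 229 and 252 CPM in WT and 94.1, 221 and 243 CPM in Fggγ390–396A microglia, and Fggγ390–396A replicate 1, with the lowest sum, also had the lowest Spp1, Gpnmb, Igf1 and Lgals3 of its group and the highest Clec7a, Cst7, Lgals3bp and Cd9. At 1 d monocyte and neutrophil markers summed to 833, 129 and 519 CPM in WT and 373, 54.7 and 34.3 in Fggγ390–396A microglia. At each replicate number the WT sum at 1 d was the higher. The part of monocytes, neutrophils and border-associated macrophages in the DAM marker levels was not tested at either time.

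Whether the genotype difference itself changed between 1 d and 7 d was tested as an interaction. None of the 8 markers passed (adjusted p below 0.1), and 0% of all genes did, with 653 genes at an unadjusted p below 0.05 and 33 genes called by DESeq2. The interaction was below 0 for all 8 markers, with -1.62 for Gpnmb (95% interval -3.34 to 0.09), -1.57 for Igf1 (-3.39 to 0.25), -1.29 for Spp1 (-2.74 to 0.15), -1.09 for Lgals3bp (-2.02 to -0.17) and -1.07 for Cst7 (-2.19 to 0.05) on the log2 scale. For Lgals3 it was -0.02 (-1.24 to 1.20), since its genotype difference had nearly the same value at both times. Lgals3bp had the lowest p of the 8 (unadjusted p = 0.023 in edgeR, adjusted p = 1). A larger genotype difference at 7 d than at 1 d was thus not shown for any marker.

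In infiltrating myeloid cells at 1 d none of the 8 markers differed between the genotypes in edgeR, against 0.453% of all genes. DESeq2 called 0 of the 8, against 841 of all tested genes. At an unadjusted p below 0.05, 1 of the 8 was lower, against 6.51% of all genes, and 1 was higher, against 5.03% of all genes. These were Clec7a, lower in Fggγ390–396A cells (log2 fold change -0.69, 95% interval -1.33 to -0.05, adjusted p = 0.41), and Cst7, higher (0.83, 0.02 to 1.64, adjusted p = 0.42), counts that were near the background. Without Fggγ390–396A myeloid replicate 1, Cst7 was called higher, with a log2 fold change of 1.27. Spp1 (-0.06, -1.08 to 0.95), Gpnmb (-0.05, -1.13 to 1.04) and Lgals3 (-0.28, -1.15 to 0.59) had values near 0 with wide intervals. The genotype difference was not shown to differ between myeloid cells and microglia at 1 d for any of the 8 markers, with adjusted p of 0.63 to 1 for that interaction in edgeR, which 0.0462% of all genes passed. At an unadjusted p below 0.05, 0 of the 8 had such a difference, against 1994 of all tested genes. With DESeq2, 0 of the 8 passed, against 259 of all tested genes. With only 8 markers, these counts of 0 do not set them apart from all genes.

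**Figure D3:**
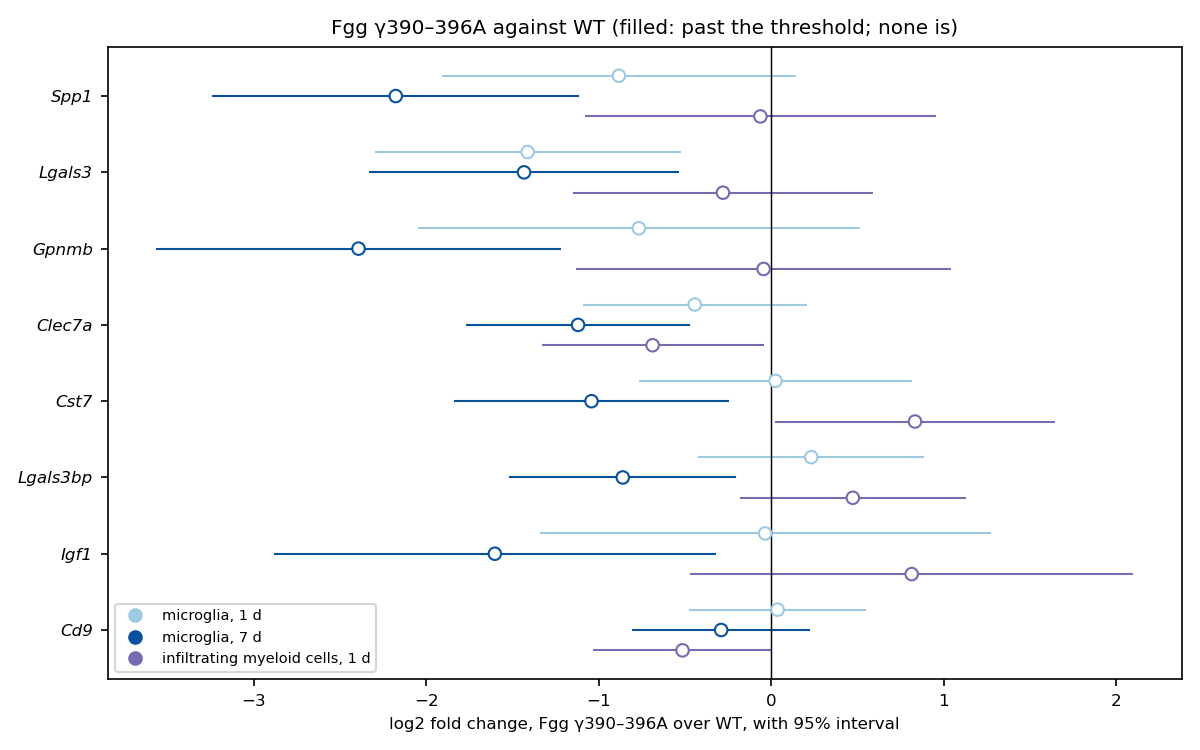
Log2 fold change of Fggγ390–396A over WT for each DAM marker, with its 95% interval, in microglia at 1 d and 7 d and in infiltrating myeloid cells at 1 d. All points are open because none passed the edgeR threshold; the intervals for microglia at 7 d lie below 0 for every marker but Cd9, with the lowest values for Gpnmb (-2.39) and Spp1 (-2.18).

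The 2 sorted populations were compared at 1 d within each genotype. In WT mice 4 markers were higher in infiltrating myeloid cells than in microglia, against 5.61% of all genes, and 1 was lower, against 6.31% of all genes. Gpnmb was 74.7-fold higher (log2 fold change 6.22 ± 0.67, adjusted p = 2.4e-06), Clec7a 13.6-fold (3.76 ± 0.34, adjusted p = 5.3e-07), Lgals3 9.85-fold (3.30 ± 0.45, adjusted p = 3.8e-05) and Spp1 3.79-fold (1.92 ± 0.50, adjusted p = 0.012). The Spp1 call was lost without WT microglia replicate 1 (1.75). Cst7 was lower by a log2 fold change of -2.21 ± 0.40 (adjusted p = 0.00057). Lgals3bp (-0.69, adjusted p = 0.16), Igf1 (0.63, adjusted p = 0.55) and Cd9 (0.21, adjusted p = 0.64) did not pass.

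In Fggγ390–396A mice the same 5 markers passed in the same directions, 4 higher against 6.96% of all genes and 1 lower against 9.7% of all genes. The log2 fold changes were 6.95 ± 0.69 for Gpnmb (adjusted p = 8.5e-07), 4.43 ± 0.48 for Lgals3 (adjusted p = 2.1e-06), 3.52 ± 0.34 for Clec7a (adjusted p = 6.1e-07) and 2.74 ± 0.52 for Spp1 (adjusted p = 0.00074). For Cst7 it was -1.40 ± 0.39 (adjusted p = 0.013), and it was no longer called without myeloid replicate 1 (-0.91) or with only the compared groups fitted (-1.28). The median of all genes in this comparison was -0.13, and that of the 8 markers 2.11. Igf1 had a log2 fold change of 1.48 (adjusted p = 0.10 in edgeR, and past the threshold with 0.03 in DESeq2). As at 7 d only microglia were sorted, the late levels of Igf1, Lgals3bp, Clec7a, Cst7 and Gpnmb in infiltrating cells were not measured.

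**Figure D4:**
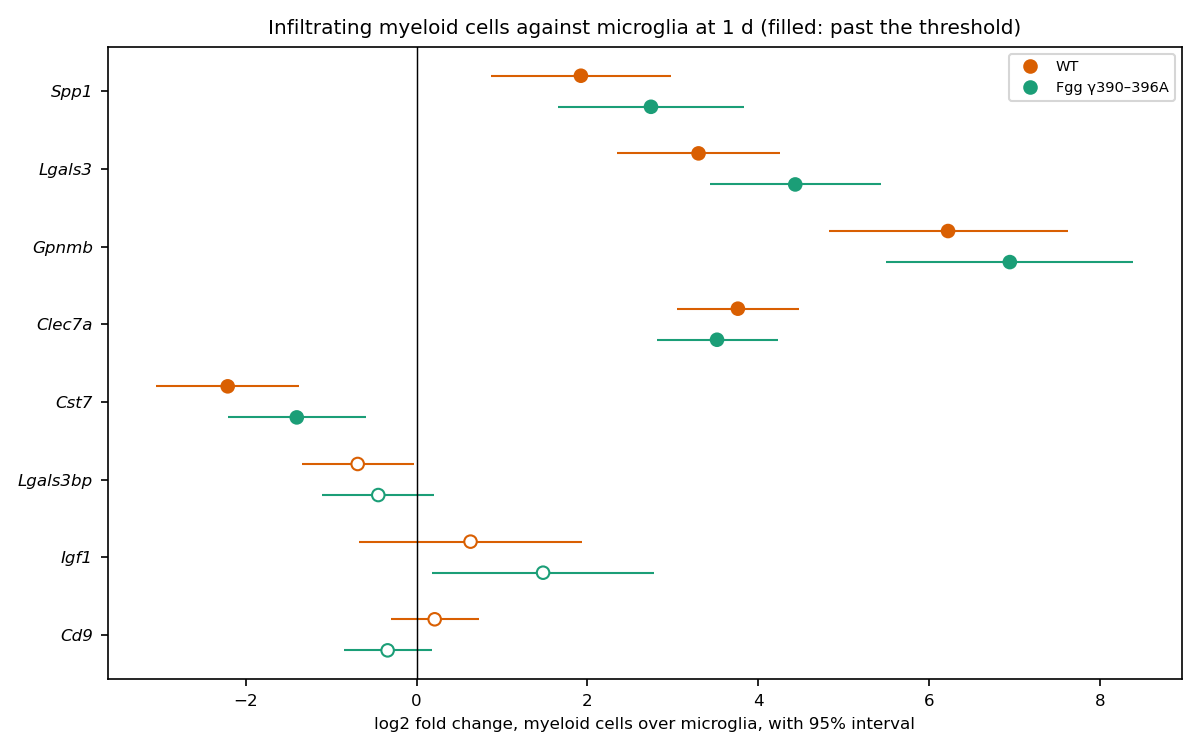
Log2 fold change of infiltrating myeloid cells over microglia at 1 d for each DAM marker, with its 95% interval, in WT and Fggγ390–396A mice; filled points passed the threshold. Gpnmb, Clec7a, Lgals3 and Spp1 lie above 0 and Cst7 below 0 in both genotypes.

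The members were not alike across libraries. Over the 15 microglia libraries the Pearson correlation of log2 CPM was 0.94 between Clec7a and Lgals3bp, 0.92 between Cst7 and Lgals3bp, 0.90 between Gpnmb and Clec7a and 0.91 between Spp1 and Lgals3. It was 0.17 between Spp1 and Igf1 and -0.07 between Igf1 and Lgals3. Spp1 and Lgals3 thus varied together, and Clec7a, Lgals3bp, Cst7 and Gpnmb varied together. The sets were not separate. With the genes of the latter set, Spp1 had correlations of 0.519 to 0.779 and Lgals3 of 0.242 to 0.523. Igf1 had 0.575 to 0.822 and Cd9 0.633 to 0.854 with the same genes. These libraries share their 5 groups, so the correlations largely describe the group differences given above. Over all 21 libraries, with myeloid cells included, Cst7 had correlations of -0.03 with Gpnmb and 0.13 with Clec7a, against 0.86 and 0.90 within microglia.

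Among 10485 genes with a mean of at least 1 CPM, the gene whose log2 CPM over the 21 libraries was most like Lgals3 was Cd44 (r = 0.99), an osteopontin receptor, followed by Lgals1 (0.99), which encodes galectin-1. Clec7a was most like Itgax (0.96), which encodes CD11c, and Gpnmb was most like Myo5a (0.96). Igf1 was most like Mitf (0.86), a factor of lysosomal and pigment cell genes. Spp1 was most like Fam221b (0.98), Cst7 and Lgals3bp were both most like Gnas (0.89 and 0.92), and Cd9 was most like Snx11 (0.72). The members Cst7 and Lgals3bp had 0.897 with each other. The points share their 7 groups and their depth.

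The other DAM genes were described with lists of known stage markers that exclude the 8 members. Of 8 genes of the TREM2-independent stage, 2 rose and 1 fell in WT microglia at 1 d and 6 rose at 7 d, and in Fggγ390–396A microglia 1 rose at 1 d and 1 at 7 d. Apoe, which encodes the lipid carrier apolipoprotein E, rose over sham at 7 d by 3.71 ± 0.61 in WT (adjusted p = 0.0016) and by 2.73 ± 0.58 in Fggγ390–396A microglia (adjusted p = 0.024) on the log2 scale. Of 19 measured genes of the TREM2-dependent stage, 6 rose at 1 d in each genotype, and at 7 d 9 rose in WT and 7 in Fggγ390–396A microglia. The fold threshold was 1.5 at 1 d and 1 at 7 d, so the counts of both lists cannot be compared between the times. Of all genes, 4.91% at 1 d and 1.93% at 7 d were called higher in WT. In Fggγ390–396A microglia these shares were 3.02% and 0.63%. Lpl, which encodes lipoprotein lipase, rose at 1 d by 6.10 ± 0.62 in WT (adjusted p = 1.6e-06) and by 5.34 ± 0.60 in Fggγ390–396A microglia (adjusted p = 1e-05). The median log2 fold change at 7 d for the TREM2-dependent list was 1.04 in WT and 0.55 in Fggγ390–396A microglia, and for the TREM2-independent list 1.22 and 0.80.

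Between the genotypes at 7 d, all 8 and all 19 of these genes had lower fitted levels in Fggγ390–396A microglia, with medians of -0.45 for the TREM2-independent and -0.49 for the TREM2-dependent list. Only Fabp5, which encodes a fatty acid binding protein, passed the edgeR threshold among them, at 3.83 CPM in Fggγ390–396A and 13.9 CPM in WT microglia (log2 fold change -1.86 ± 0.29, adjusted p = 0.015). Of the homeostatic microglia genes, 9 of 12 had higher fitted levels in Fggγ390–396A than in WT microglia at 7 d (median log2 fold change 0.17) and 10 of 12 at 1 d (median 0.63), and 1, Fcrls, was called lower at both times. Fcrls was also called lower by edgeR in Fggγ390–396A myeloid cells at 1 d (log2 fold change -1.33, adjusted p = 0.061), so its difference was not limited to microglia. The median of all genes was 0 at 7 d and at 1 d. These lists, like the members, were chosen with earlier results of these data known.

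Partners of the members were described with lists by pathway. Of 9 osteopontin receptor genes, 2 rose in each genotype at 1 d, Cd44 and Itga5. Of all genes, 4.91% in WT and 3.02% in Fggγ390–396A microglia were called higher at 1 d. Cd44 rose by 4.76 ± 0.44 in WT (adjusted p = 5.5e-07) and by 3.04 ± 0.41 in Fggγ390–396A microglia (adjusted p = 5.8e-05) on the log2 scale, and fell from 1 d to 7 d in both, as Lgals3 did. Of 6 other galectin genes 1, Lgals1, rose at 1 d in each genotype, by 4.02 ± 0.47 in WT (adjusted p = 6.2e-06) and 3.03 ± 0.45 in Fggγ390–396A microglia (adjusted p = 0.00015). Of 9 genes that signal below Dectin-1, 1 passed against sham, Src, which was lower in WT at 1 d (-1.65 ± 0.55, adjusted p = 0.047), and the median log2 fold change of the 9 at 7 d was -0.10 in WT and -0.02 in Fggγ390–396A microglia. Of all 23815 genes tested, 1749 were called in either direction in WT at 1 d, and 1170 of these were higher.

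Of 7 other cystatin and cathepsin genes, 1, Cstb, which encodes cystatin B, rose over sham in both genotypes at 1 d (2.99 ± 0.27 in WT, adjusted p = 5.1e-07, and 2.20 ± 0.27 in Fggγ390–396A, adjusted p = 2e-05) and in WT at 7 d. Cstb fell from 1 d to 7 d (by 1.70 in WT and by 1.46 in Fggγ390–396A microglia on the log2 scale), in the opposite direction to Cst7 in WT. Of 12 genes of the insulin-like growth factor axis, 2 rose in each genotype at 1 d, Igf2r and Igfbp6, at the time when Igf1 itself was not above sham, and 1 fell in WT, Irs2, which encodes an insulin receptor substrate (-1.89 ± 0.36, adjusted p = 0.00077). Igf2r had 0.0484 CPM in sham, 14.2 CPM in WT and 6.68 CPM in Fggγ390–396A microglia at 1 d. Of 8 other tetraspanin genes, 1 passed against sham, Cd82, which fell in WT at 1 d (-2.04 ± 0.25, adjusted p = 7.8e-06). Of 5 MiT/TFE factors and relatives of Gpnmb, 1, Tfeb, rose from 1 d to 7 d in WT (1.09 ± 0.32, adjusted p = 0.034), against 2.67% of all genes. The all-gene shares at 1 d given with the osteopontin receptors hold for these lists too. Whether any partner list differed from all genes was not tested.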

How the data were processed

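Sorted microglia and infiltrating myeloid cells were profiled by paired-end bulk RNA-seq in 21 libraries. The authors mapped reads to GRCm38, ran salmon within nf-core/rnaseq and deposited expected counts per gene, scaled so that gene length is divided out. Virtually no value above 0 was whole (100.0% were not, to within 1e-06), so the expected counts were rounded. The submitters' processing notes name R 4.2.0 and DESeq2 1.36.0 for their own tests.

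Gene symbols were matched by Ensembl ID to GENCODE M21 (45143 of 45706 IDs). The Fggγ390–396A, WT and sham groups were taken from the sample labels. Genes with at least 5 counts over all libraries entered 1 fit of edgeR 4.0.16 (R 4.3.3, quasi-likelihood test, TMM scaling, 1 mean for each of 7 groups), with Benjamini-Hochberg adjustment over all 23815 genes. The adjusted p threshold was 0.05, as in the study's methods. Between genotypes it was 0.1, the level in the study's plots of that contrast at 1 d, and this was extended here to 7 d and to the interactions. All 8 members were named, and from a related list at most the 3 genes called with the lowest adjusted p whose groups did not overlap. The members and lists were chosen with earlier results of these data known. Nearest genes were ranked by Pearson correlation of log2 CPM (prior count 2). Alternatives were DESeq2 1.42.0, other scaling, filters and fits, and leaving out each library. On counts simulated for WT 1 d against sham, with 200 of 23815 genes changed by a log2 fold change of 2, 71% were recovered with 3 other calls.

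No replicate pair agreed within sampling noise (chi-square per degree of freedom of at least 18.8). Replicates came from separately pooled brains. Replicate numbers are shared by the groups. They were taken to pair the libraries where the deviations of every same-numbered pair correlated above 0.1, which held only between Fggγ390–396A and WT microglia at 1 d (correlations of 0.372, 0.151 and 0.104). The SE was taken as the absolute log2 fold change divided by the square root of the F value of the edgeR test. Intervals were built from this SE. Both include the spread between libraries, while the 3-count limit covers counting error only.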

Additional observations from a re-analysis of the deposited data

How the results depend on the processing

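The 3 libraries per group and their spread limit what small differences can show, and sham levels of Gpnmb rest on few counts. With the replicate block, the numbers of members called were the same as without it in every comparison, 0 at 1 d between genotypes included, where the pairing held, and the all-gene count moved only for myeloid genotype (66 against 108). Members called between genotypes moved from 0 to 1 at 1 d and to 3 at 7 d with DESeq2, and to 1 at 7 d with the compared groups only. The causes were not tested.

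Counts over all genes with DESeq2 were 820 (main 481) for WT 7 d against sham, 347 (158) for Fgg 7 d against sham, 104 (13), 80 (9) and 841 (108) between genotypes in microglia at 1 d, at 7 d and in myeloid cells, 33 (0) for genotype by time and 259 (11) for genotype by cell type. With the compared groups only they were 85 for Fgg 7 d against sham, 8, 19 and 7 between genotypes in the same order, 2211 (3967) for Fgg myeloid cells against microglia and 0 for genotype by cell type. With adjusted p alone they were 3970 (1749) and 2332 (834) at 1 d against sham for WT and Fgg, and 1343 (844) for Fgg 7 d against 1 d. With edgeR's own expression filter the myeloid genotype count was 176.

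Leaving out 1 library gave 283 (without sham replicate 1) to 486 genes for WT 7 d against sham, 74 to 179 for Fgg 7 d against sham (82 and 74 without sham replicates 1 and 2), 463 to 1163 for Fgg 7 d against 1 d (463 and 554 without Fgg 1 d replicates 2 and 3), 6 to 89 between genotypes at 1 d (89 and 6 without WT replicates 1 and 3), 65 to 641 in myeloid cells (314 and 641 without Fgg replicates 1 and 3, 65 without WT replicate 3) and 0 to 151 for genotype by cell type (2 and 6 without Fgg microglia replicates 1 and 3, 24 and 151 without Fgg myeloid replicates 1 and 3, 2 and 0 without WT microglia replicates 2 and 3). Members called ranged from 2 to 5 for Fgg 7 d against 1 d (2 without Fgg 1 d microglia replicate 2) and from 0 to 1 for myeloid genotype (1 without Fgg myeloid replicate 1).

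Sign changes were confined to log2 fold changes that were not called. Cst7 between genotypes at 1 d (0.02) was -0.0036 with DESeq2, -0.0039 with its size factors and -0.014 with the expression filter. Gpnmb between genotypes in myeloid cells (-0.05) was 0.0017 with that filter and 0.0073 with the compared groups only, and Lgals3 by genotype and time (-0.02) was 0.011 with that filter. Leaving out 1 library gave, between genotypes at 1 d, -0.017 to 0.12 for Cd9, -0.12 to 0.16 for Cst7, -0.17 to 0.038 for Igf1 and -0.24 to 0.46 for Lgals3bp. In myeloid cells it gave -0.53 to 0.20 for Gpnmb and -0.29 to 0.13 for Spp1. For Fgg 7 d against 1 d it gave -0.0040 to 0.32 for Cd9. For myeloid cells against microglia it gave -0.062 to 0.36 for Cd9 and -0.030 to 1.05 for Igf1 in WT, and -0.57 to 0.038 for Cd9 and -0.73 to 0.019 for Lgals3bp in Fgg. For genotype by cell type it gave -0.54 to 0.10 for Clec7a and -0.038 to 0.71 for Lgals3bp, and for genotype by time -0.63 to 0.27 for Lgals3.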
